A study of Drosophila melanogaster with 7 samples.

Results

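Astrocyte-like glia (ALG) of the adult Drosophila central brain were picked out of 7 droplet runs by the UMIs of each cell barcode, and 1744 of the 157482 barcodes that passed the quality limits (164038 in all) met the rule. Quality meant 200 genes or more and no more than 30% of UMIs from mitochondrial genes. The rule then asked for 3 or more UMIs of alrm and 2 or more of Gat (listed as CG1732), no more than 3 UMIs of elav, nSyb and brp together, and no more than 2 of Tret1-1, Indy and CG6126 together. A UMI is a tag that marks 1 captured RNA molecule. Those 8 genes chose the cells, so their levels are given as a description and were not tested. The rule was set with values of these libraries in view.

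The study sampled the brains, without optic lobes, of male flies of the Drosophila genetic reference panel (DGRP), a set of inbred wild-type lines, to follow transcripts across sleep, wakefulness and time of day. Each run pooled flies of 5 to 9 lines out of 10, aged 4 to 9 days, that had been kept in 2 to 4 of 12 behavioral conditions and collected at 1 or 2 Zeitgeber (ZT) times, where ZT0 is lights on. Run 5 held ZT20 flies alone (lines 88, 287 and 379 asleep, lines 303, 441 and 908 mechanically sleep-deprived since ZT12, 6 to 7 days old). Runs 6 and 7 held ZT8 flies alone (lines 287, 303, 379, 441, 646 and 908 in each, spread over wakefulness, sleep deprivation since ZT12 and sleep induced with gaboxadol, 4 to 8 days old). The other runs mixed ZT times and held flies of 6 to 9 days. Run 1 held ZT8 flies that were sleep-deprived since ZT0 (lines 313 and 359) or awake (line 88) and ZT20 flies that were asleep (line 441) or sleep-deprived (line 379). Runs 2 and 3 held ZT2 flies in recovery sleep (lines 287, 379 and 646 in run 2, lines 88, 303 and 892 in run 3) or sleep-deprived since ZT12 (lines 441 and 892, and lines 287 and 646). Their ZT20 flies were asleep (lines 303 and 313, and lines 379 and 908) or, in run 2, sleep-deprived (lines 88 and 908) and, in run 3, yoked controls (lines 313 and 441). Run 4 held ZT2 flies in recovery sleep (lines 287 and 441) or awake (line 303) and ZT14 flies that were asleep (lines 379 and 646) or sleep-deprived (lines 88 and 908). No file used here ties a barcode to a fly line, so cells could not be split by sleep state. The run was the replicate, all runs carry 1 common label, and a run with its ZT time, its mix of behaviors and its lines cannot be told apart.

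Astrocyte-like glia are the neuropil glia that send fine branches among synapses. In the fly they are known for taking up glutamate and GABA, for handling amines, for gap junction coupling and for part in daily rhythms and sleep. They share the neuropil with ensheathing glia (EG), flat cells that wrap it, while perineurial glia (PG) form the outer layer of the surface of the brain. Here EG were barcodes with at least 3 UMIs of CG9657 and at most 1 of alrm (1763 cells), and PG were barcodes with at least 4 UMIs of the surface trio Tret1-1, Indy and CG6126 and at most 1 of alrm (522 cells), both under the same neuronal limit. Neurons, used for background levels, had at least 6 UMIs of the neuronal trio and none of alrm or repo (97710 cells).

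The libraries did not stand alike. They held 49949595 to 311443505 UMIs. In runs 2, 3 and 4 no barcode was below 2658, 2676 and 2914 UMIs, while the other runs reached down to 500. Runs 5 to 7 carried 4 antibody features at 0 UMIs and are treated as a batch apart. Only 1 barcode sequence was found in ALG of more than 1 run (3011 of 160991 distinct sequences over all barcodes). Doublet calls touched 34 ALG, 1.95% of them, of which 22 came from run 1. The score threshold differed between runs, at 0.294 in run 1 and 0.654 in run 2. Of all kept barcodes 24.2% and 4.03% were called there, where 17.7% and 28.1% were expected. Doublet calls are thus not on 1 scale over the runs.

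ALG made up 1.65% of the kept barcodes in run 1 (365 cells, exact 95% interval 1.49 to 1.83%), 0.823% in run 2 (289 cells), 1.36% in run 3 (424 cells), 0.812% in run 4 (268 cells), 1.85% in run 5 (239 cells, 1.62 to 2.10%), 0.753% in run 6 (103 cells) and 0.595% in run 7 (56 cells, 0.450 to 0.772%). The mean was 1.12% ± 0.494 (SD, n = 7), and the intervals, which cover counting error only, did not overlap between the highest and the lowest runs. The order was another among cells with at least 3000 UMIs, where run 3 was the highest at 1.15%. There run 1 stood at 0.547%, run 5 at 0.581% and run 7 at 0.115%. This cut removes more cells where barcodes reach down to 500 UMIs, and the cause of the order was not tested. Limits on neuronal UMIs shaped these shares, since 5203 barcodes met the alrm and Gat limits and 3449 of them were left out for neuronal UMIs, 3199 of 4190 in runs 2 to 4 and 250 of 1013 in the other runs. How far the shares follow the number of such cells in a brain was not tested. Just inside the limits lay 152 cells with 3 UMIs of alrm, 161 with 2 of Gat and 357 with a neuronal sum of 3. Just outside lay 202 barcodes with 2 UMIs of alrm, 256 with 1 of Gat and 269 with a neuronal sum of 4, each meeting the other limits. The surface limit mattered little, with 10 cells inside at 2 UMIs and 1 barcode outside at 3.

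**Figure D1:**
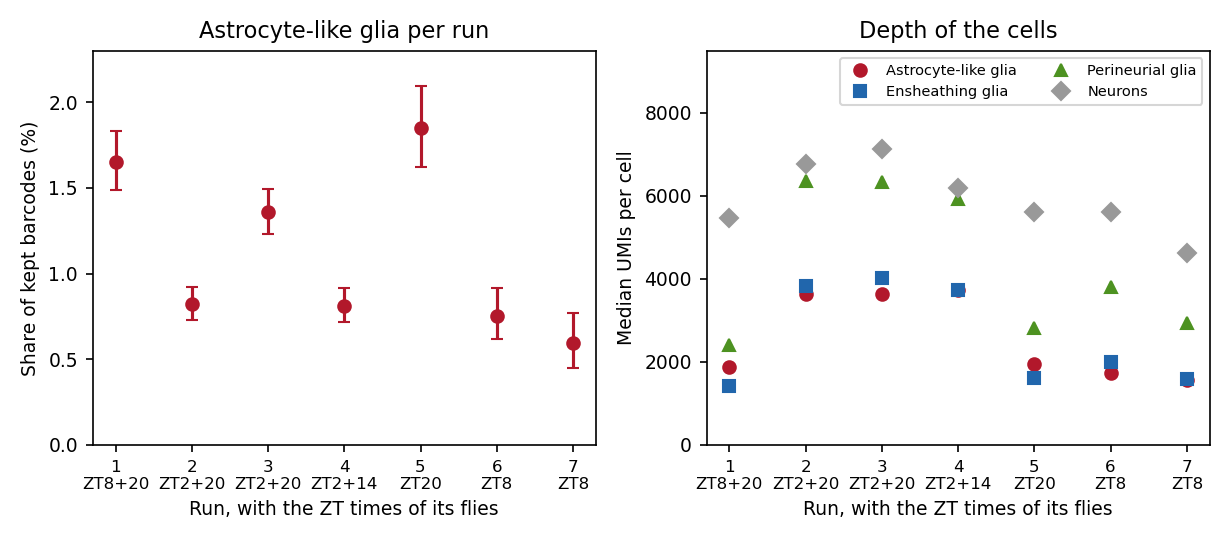
The left plot gives the share of kept barcodes that met the astrocyte-like rule in each run, with exact 95% binomial intervals, and the right plot the median UMIs per cell of 4 cell types in each run. The shares run from 0.595% in run 7 to 1.85% in run 5, and ALG of runs 2 to 4 are the deepest at 3641 to 3737 UMIs.

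The median ALG held 3182 UMIs and 1005 genes. By run the median was 1884, 3641, 3643, 3737, 1943, 1737 and 1566 UMIs in runs 1 to 7, so that cells of runs 2 to 4 were about as deep as each other and deeper than all others. The levels below are CPM, the UMIs of a gene per 1000000 UMIs summed over all ALG of a run. Those sums ran from 104291 UMIs in run 7 to 1812919 in run 3, so that levels in run 7 are the least precise.

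The label was checked on the 2 markers that the rule did not use. Eaat1, the glutamate transporter of fly glia (chromosome 2L, 9333567 to 9341925 in the Release 6 genome), was found in 83.6% of ALG after each cell was thinned to 1000 UMIs (94.8% unthinned), against 28.4% of EG and 3.96% of neurons. The lipid phosphate phosphatase wun2 was found in 46.3% of thinned ALG (72.6% unthinned), 1.67% of EG and 0.664% of neurons. The pan-glial factor repo was found in 22.8% of thinned ALG and 18.3% of EG. Thinning left out 135 ALG and 270 EG with fewer UMIs. Both markers thus separated the gate from EG and from neurons, and the name was kept. Of the rule's own genes, alrm lay at 4028 to 8598 CPM and Gat at 2920 to 6727 CPM over the 7 runs.

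RNA of other cells was measured beside them. Summed over the 4 neuronal genes that the rule left free (Syt1, VAChT, Gad1 and VGlut), ALG held 285.4, 786.7, 673.5, 1146, 265.5, 155.0 and 201.4 CPM in runs 1 to 7, against 3584 to 3868 CPM in neurons. The runs with a high UMI floor were the highest. Markers of hemocytes summed to at most 3.42 CPM, of muscle to 2.21, of photoreceptors to 11.1 and of fat body to 3.57 in any run, with He, Act88F and chp at 0. The cortex glia list summed to 556 to 1016 CPM in ALG and 650 to 1201 CPM in EG, most of it from Cyp4g15 in ALG. Cyp4g15 was lower in EG, so wrapper and zyd made up more of the sum there. The EG gate did not exclude cortex glia, and their part in the differences between ALG and EG was not tested. CG9657, which chose EG, reached 330 to 758 CPM in ALG and 1248 to 3249 CPM in EG.

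ALG were first set against EG, the other glia of the neuropil, to find which genes set apart cells that share a place. The sums of each cell type were compared within runs by the quasi-likelihood test of edgeR, with adjusted p from the Benjamini-Hochberg method over all genes tested. Of 4475 genes, 1329 (29.7%) passed an adjusted p of 0.05, 718 higher in ALG (16%) and 611 lower (13.7%). In each of the 17 alternatives the split turned, with fewer genes higher than lower. It was 550 higher and 707 lower with RLE in place of TMM scaling, and 419 and 605 with DESeq2. Genes of either rule were left out. Lists of genes by role are described by counts, which stand beside that background of 29.7%.

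Genes that clear and recycle transmitters split between the glia. Of the 14 genes of the list for glutamate, GABA and amines, 12 were tested, 4 were higher and 2 were lower, with a median log2 difference of 0.01 against 0.09 over all genes. Eaat1 ran from 2253 to 5264 CPM in ALG (median 3320) and from 314 to 581 CPM in EG (median 376), with no overlap, a log2 difference of 3.14 ± 0.10 (SE) and an adjusted p of 1.96e-17 (edgeR). Gs2, glutamine synthetase, which turns the glutamate taken up into glutamine, lay at 5002 to 11431 CPM in ALG (median 8434) and 2559 to 4304 CPM in EG (median 3435). Its log2 difference was 1.22 ± 0.07 with an adjusted p of 2.7e-13 (edgeR).

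Other genes of this list were low in EG. ebony (e, chromosome 3R, 21229839 to 21237177), whose enzyme joins beta-alanine to dopamine and histamine, lay at 265 to 615 CPM in ALG (median 366) and at 3.02 to 17.7 CPM in EG (median 6.35). This was a 44.4-fold difference (log2 5.47 ± 0.17, adjusted p = 1.96e-17, edgeR). Dat, which the files list apart from the dopamine transporter gene DAT and which could not be matched to a single current gene, so that its place in the list is uncertain, lay at 417 to 1189 CPM in ALG and 18.3 to 73.0 CPM in EG, 18.2-fold higher. Neurons held 83.0 to 119 CPM of Dat, above the EG level in every run. Both genes were higher in ALG in 7 of 7 runs.

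The remaining transmitter genes were shared or higher in EG. Eaat2, the second transporter of this family in the fly, lay at 47.9 to 160 CPM in ALG and 274 to 441 CPM in EG (log2 -1.44 ± 0.13, adjusted p = 3.07e-09, edgeR). Gabat (listed as CG7433), the GABA transaminase, was lower by 0.45 ± 0.09 on the log2 scale. Ssadh, the next enzyme of GABA breakdown, gave -0.05 ± 0.07 at 413 to 665 CPM in ALG. The transporter ine gave -0.07 ± 0.11 and the aminotransferase Got1 -0.15 ± 0.08, neither past the threshold. Got1 passed as lower in 5 of 17 alternatives and Ssadh in 1.

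**Figure D2:**
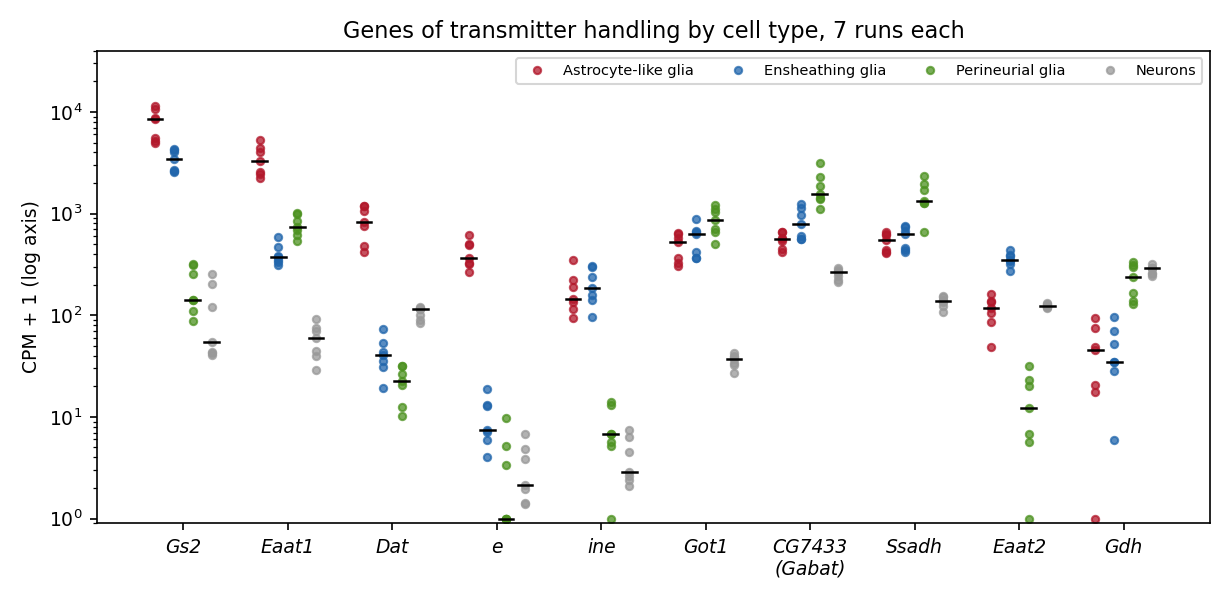
CPM plus 1 on a log axis for 10 genes of transmitter handling in 4 cell types, 1 point per run and a black bar at the median of the 7 runs. Gs2, Eaat1, Dat and e lie higher in ALG than in EG in every run, while Eaat2 lies lower.

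Of 25 receptor genes listed, 13 were tested, 0 were higher in ALG and 5 were lower, with a median log2 difference of 0.02. Dop1R1, a dopamine receptor coupled to cyclic AMP, lay at 151 to 267 CPM in ALG (median 219) and 440 to 943 CPM in EG (median 704), with a log2 difference of -1.64 ± 0.11. The TRP channel gene wtrw lay at 101 to 224 CPM in ALG and 447 to 1032 CPM in EG (log2 -2.11 ± 0.11). In neither gene did the groups overlap. The receptor moody, known for the surface barrier, was lower by 1.19 ± 0.10, the serotonin receptor 5-HT7 by 0.77 ± 0.16 and the octopamine receptor Octbeta2R by 0.58 ± 0.13 on the log2 scale. After thinning, Octbeta2R was found in 17.0% of neurons, 7.53% of EG and 4.88% of ALG. For 5-HT7 the shares were 4.20%, 3.78% and 2.27%. Dop1R1, wtrw and moody were found in 19.3%, 1.29% and 0.382% of neurons, below EG. The part of neuronal RNA in these differences was not tested. Dop2R, the D2-like dopamine receptor, gave 0.22 ± 0.10 with an adjusted p of 0.0841, and its ALG levels ran from 125 to 657 CPM beside 2731 to 5818 CPM in neurons. It passed as higher in 2 of 17 alternatives.

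Gap junction genes split by member. Innexins form the gap junctions of the fly. Of 18 tested genes for ions, water and innexins (24 listed), 4 were higher and 6 lower, with a median log2 difference of 0.05. The innexin ogre lay at 1621 to 3133 CPM in ALG and 672 to 1088 CPM in EG (log2 1.39 ± 0.07), and its common partner Inx2 at 893 to 1965 CPM against 546 to 1108 CPM (log2 0.83 ± 0.07). Inx3 went the other way at 72.2 to 173 CPM in ALG and 215 to 587 CPM in EG (log2 -1.49 ± 0.14). Potassium channel genes were lower in ALG, with Ork1 at -2.24 ± 0.13, Irk3 at -1.39 ± 0.16 and Irk2 at -0.35 ± 0.08 on the log2 scale. The cotransporters parted, since kcc, which moves potassium and chloride out of cells, was 1.84-fold higher in ALG and Ncc69, which moves them in, 2.92-fold lower. The sodium pump subunit Atpalpha was near equal at 5293 to 7086 CPM in ALG and 5079 to 6996 CPM in EG (log2 0.09 ± 0.06, adjusted p = 0.271, edgeR), whereas its partner nrv2 was lower by 0.45 ± 0.06. Best1 passed at 0.84 ± 0.26 but lost its call without run 1, 4, 5 or 6 and without the run as a block. After thinning, kcc was found in 26.0% of neurons, 13.7% of ALG and 7.29% of EG. Best1 was found in 2.53%, 1.99% and 1.03%. By contrast, ogre and Inx2 were found in 3.5% and 2.5% of neurons, below ALG and EG. The part of neuronal RNA in these differences was not tested.

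Most lipid genes that moved were lower. Of 16 tested (18 listed), 1 was higher and 8 were lower, with a median log2 difference of -0.36. The lipocalin GLaz lay at 39.5 to 126 CPM in ALG and 137 to 414 CPM in EG (log2 -1.81 ± 0.11), and its relative NLaz at 18.2 to 38.4 CPM against 0 to 18.3 CPM (log2 1.07 ± 0.24). These lipocalins, which bind small lipids, thus differed in opposite directions. After thinning, NLaz was found in 3.18% of neurons, 2.38% of ALG and 1.33% of EG. GLaz was found in 0.36% of neurons. The part of neuronal RNA in the NLaz difference was not tested. The lipoprotein receptor LpR2 was lower by 1.51 ± 0.12, the sterol carrier Npc2a by 1.33 ± 0.09, Acsl by 0.90 ± 0.09, the lipoprotein apolpp (listed as Rfabg) by 0.83 ± 0.12, fabp by 0.78 ± 0.09, the desaturase Desat1 by 0.64 ± 0.10 and the lipid droplet gene Lsd-2 by 0.38 ± 0.12 on the log2 scale. Obp44a, an abundant binding protein of both glia, lay at 5982 to 10461 CPM in ALG and 6390 to 13175 CPM in EG (log2 -0.13 ± 0.10, adjusted p = 0.365, edgeR). It passed as lower in 3 of 17 alternatives, at -0.42 under the stricter gate, -0.21 with no count filter and -0.29 without run 1, and turned to 0.17 with cells of at least 3000 UMIs.

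Of 13 sugar genes tested (19 listed), 5 were higher in ALG and 0 lower, with a median log2 difference of 0.16. Treh, the trehalase that splits the blood sugar trehalose, lay at 1066 to 2744 CPM in ALG and 763 to 1907 CPM in EG (log2 0.49 ± 0.07), with overlapping ranges but a higher value in ALG in 7 of 7 runs. With cells of at least 3000 UMIs its difference was 0.17 and did not pass. The glycolytic genes Gapdh1 (0.49 ± 0.07), Pgk (0.37 ± 0.07), Tpi (0.33 ± 0.08) and Eno (0.22 ± 0.07) made up the rest. Eno lost its call in 11 of 17 alternatives and Tpi in 2. Hex-A, which starts glycolysis, gave 0.16 ± 0.07 and did not pass.

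Genes of engulfment and immunity (10 tested of 22 listed) held 2 that were higher and 4 that were lower, with a median log2 difference of -0.41. The tumor necrosis factor receptor wgn lay at 98.7 to 151 CPM in ALG and 12.2 to 44.4 CPM in EG (log2 2.28 ± 0.16). The NF-kB factor Rel was higher by 0.78 ± 0.19, with run 6 at 83.8 CPM far above the next run at 30.5 CPM. The iron carrier Tsf1 lay at 958 to 1568 CPM in ALG and 2326 to 3782 CPM in EG (log2 -1.25 ± 0.10). The engulfment receptor drpr and its adaptor ced-6 were lower by 0.46 ± 0.10 and 0.62 ± 0.08, and the bacterial sensor PGRP-LC by 1.26 ± 0.20 on the log2 scale. Genes for antimicrobial peptides such as DptB, Drs and AttC were among the 12 listed that did not reach the count filter.

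Of 16 tested genes of glial fate, adhesion and growth factor signals (18 listed), 8 were higher and 4 lower, with a median log2 difference of 0.44. The fibroblast growth factor receptor htl, which guides the growth of astrocyte branches in the larva, lay at 281 to 700 CPM in ALG and 70.8 to 138 CPM in EG (log2 2.28 ± 0.09). The ETS factor pnt was higher by 1.31 ± 0.10, and stumps, the adaptor of htl, by 0.34 ± 0.11, a call that 12 of the alternatives ended. The lipid phosphate phosphatases wun and wun2 were 5.96-fold and 43-fold higher, with wun2 at 464 to 1014 CPM in ALG and 0 to 28.8 CPM in EG. The adhesion gene Fas2 was higher by 1.22 ± 0.14, and the glial factors pros and repo by 0.55 ± 0.08 and 0.46 ± 0.09, of which repo lost its call in 2 alternatives. The 4 lower genes were SPARC (listed as BM-40-SPARC) at -1.84 ± 0.11, the perlecan trol at -1.63 ± 0.10, neuroglian (Nrg) at -1.13 ± 0.11 and dally at -0.30 ± 0.07.

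Of 16 tested detoxification and redox genes (18 listed), 5 were higher and 6 lower, with a median log2 difference of -0.14. Higher were the cytochrome P450 genes Cyp4g15 (0.94 ± 0.08) and Cyp28a5 (0.61 ± 0.09), the glucuronosyltransferase Ugt86Dd (0.94 ± 0.10) and the glutathione transferases GstE1 (0.60 ± 0.09) and GstD1 (0.34 ± 0.08). Lower were the metallothionein MtnA, at 1540 to 3197 CPM in ALG and 5421 to 10273 CPM in EG (log2 -1.34 ± 0.09), GstS1 (-1.38 ± 0.13), Gclc (-0.80 ± 0.13), Jafrac1 (-0.52 ± 0.09), Cat (-0.41 ± 0.15) and Sod3 (-0.36 ± 0.07). Of 17 alternatives, 6 ended the call of Cat, 2 that of Sod3 and 2 that of GstD1. Genes that the study selected for glia on these same libraries, which makes them no independent evidence, held 5 higher and 1 lower of 15 tested, with a median log2 difference of 0.08. They were Ugt86Dd, Cyp28a5, GstE1, CG6770 (0.42 ± 0.06) and E23 (0.43 ± 0.11), and Mdh1 (-0.31 ± 0.07). Of 12 clock genes tested, Pdp1 (0.33 ± 0.08) and E23 were higher and Clk, at 3.61 to 38.4 CPM in ALG, was lower (-1.19 ± 0.23), with a list median of 0.12. E23 lost its call in 7 of 17 alternatives and Pdp1 in 3, and with cells of at least 3000 UMIs E23 stood at 0.10 and Pdp1 at 0.09.

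**Figure D3:**
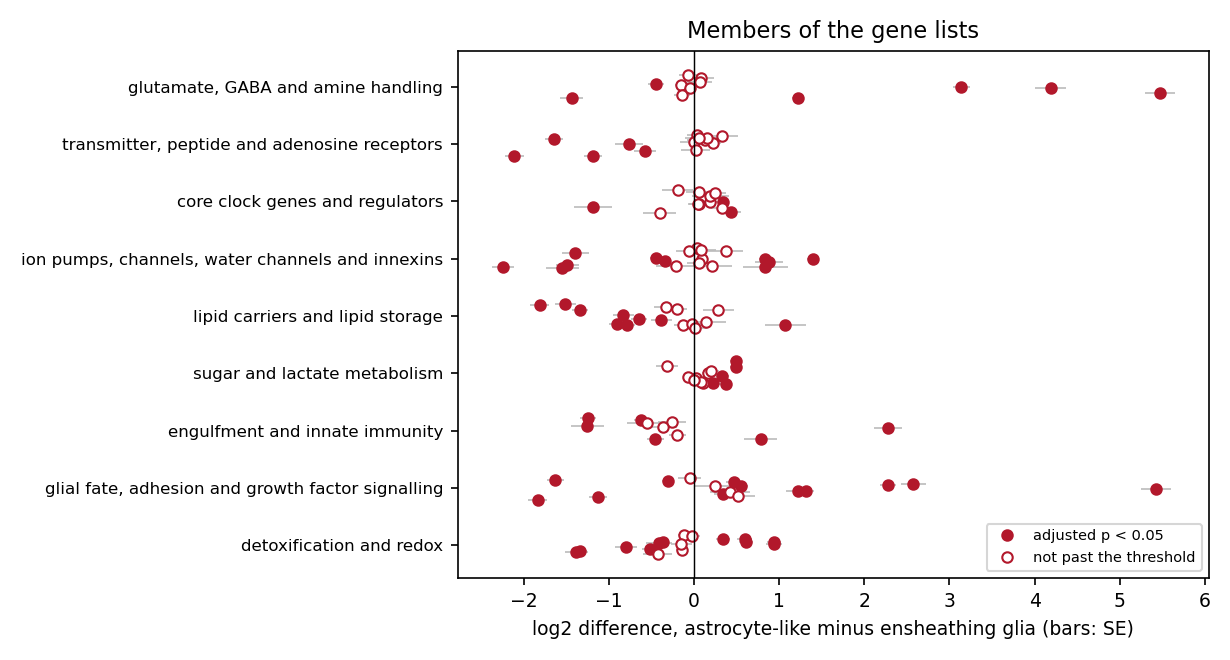
Log2 difference between ALG and EG with its standard error for each tested member of 9 gene lists, filled where the adjusted p was under 0.05. Receptor and lipid genes past the threshold lie mostly to the left, as in Dop1R1 and GLaz, and Eaat1, Dat, e and wun2 lie farthest to the right.

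Over all tested genes, the largest differences upward in ALG, with the same direction in 7 of 7 runs, were those of CG42741, e, wun2, Act79B, Cks30A, Dat, GstD3, Spn31A, Tet (listed as CG43444) and CG30015. CG42741 lay at 103 to 297 CPM in ALG and 0 to 4.42 CPM in EG. The actin gene Act79B (chromosome 3L, 21985210 to 21987190) lay at 416 to 1889 CPM against 9.85 to 49.8 CPM, and GstD3 at 665 to 1966 CPM against 34.5 to 82.2 CPM. These belong to families of close copies, and reads shared with other members cannot be told apart here. Tet, a dioxygenase of methylated bases, lay at 1600 to 3101 CPM against 117 to 210 CPM, a 12.4-fold difference. Cks30A, Spn31A and CG30015 stood lower, at up to 38.4, 106 and 208 CPM in ALG.

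The largest differences downward were those of CG8112, mol, Ork1, CG9377, wtrw, 18w, Ect3, CG6356, CG16743 and osy (listed as CG33970), with log2 differences from -2.55 to -2.02. CG16743 was the most abundant, at 268 to 712 CPM in ALG and 1269 to 3422 CPM in EG. The Toll-like receptor 18w lay at 9.59 to 29.7 CPM against 68.9 to 121 CPM. CG9377 reached 479 CPM in the highest ALG run beside 54.7 in the lowest, so it varied more between runs than the others. None of the 20 genes lost its call in any alternative in which it was tested. The 4 neuronal markers outside the rule summed to 120.7 to 1097 CPM in EG, above ALG of the same run in runs 1, 2 and 5 and below it in the other 4, and their part in the differences was not tested.

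The comparison was repeated against PG, which do not enter the neuropil, to see which genes mark ALG against glia of another layer. Of 4213 genes tested, 2429 (57.7%) passed, 1230 higher in ALG (29.2%) and 1199 lower (28.5%). In run 6 the PG sum held 4678 CPM of muscle markers and 638.7 CPM of hemocyte markers, while muscle markers were at 0 to 1.46 CPM in the other runs. Hemocyte markers also reached 133.3 CPM in run 5 and 71.8 CPM in run 3, and markers of subperineurial glia, the layer beneath PG, summed to 345.3 to 781.1 CPM, with Mdr65 in 68.2% of PG cells (32.1% after thinning). Their part in the differences was not tested.

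Genes of the transmitter list parted again. Of 12 tested, 6 were higher in ALG and 5 lower, with a median log2 difference of 1.03 against 0.01 over all genes. e was at 0 to 8.69 CPM in PG, 144-fold below ALG, and Gs2 at 87.4 to 315 CPM, 38.7-fold below. Eaat1 was not restricted to ALG, with 535 to 1006 CPM in PG, a 4.23-fold difference. The GABA breakdown genes Gabat (1109 to 3114 CPM) and Ssadh (652 to 2338 CPM) were higher in PG by 3.26-fold and 2.78-fold.

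Several genes shared by ALG and EG were low in PG. Obp44a lay at 34.5 to 601 CPM in PG, 41.7-fold lower, Treh at 18.4 to 160 CPM, 23.8-fold lower, and Inx2 at 31.0 to 99.3 CPM, 20.8-fold lower. The sodium pump subunits traded places, with nrv2 at 63.7 to 298 CPM and nrv3 at 3215 to 7286 CPM in PG, against 2218 to 4909 CPM and 205 to 2299 CPM in ALG. Hexokinase (Hex-A, 3.49-fold), Fas2 (22.5-fold), the lipoprotein receptor LpR1 (23.9-fold) and SPARC (5.55-fold) were higher in PG. Dop1R1, low in ALG beside EG, was 7.26-fold higher in ALG than in PG.

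The largest differences upward against PG were those of e, wun2, CG9394, ktub, CG42741, CG1552, Adgf-C, CG1537, Tsp5D and Adgf-D. CG9394 and CG1552 were among the most abundant transcripts of ALG, at 4826 to 12596 CPM and 7627 to 14971 CPM, against 4.32 to 120 CPM and 4.32 to 257 CPM in PG. CG9394 lies within the span of ktub on the same strand, and ktub itself held 1 UMI in PG and 310 in ALG, a ratio of 202 with a counting interval of 36.0 to 8011. The adenosine deaminase genes Adgf-C and Adgf-D, whose enzymes break down extracellular adenosine, lay at 57.9 to 151 CPM and 526 to 1112 CPM in ALG, and at 0 to 4.38 CPM and 0 to 36.5 CPM in PG.

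The largest differences downward were those of Mipp1, CG14397, stl, CG4301, ry, CG31200, CG15394, CR43870, CG4462 and CG5687. Mipp1, CG14397, CG4301 and the xanthine dehydrogenase gene ry had no UMI in any of the 1744 ALG. Against a floor of 3 UMIs over all ALG (0.514 CPM) they were at least 266.8-fold, 201.9-fold, 147.7-fold and 132.4-fold lower than in PG. CG31200 held 2 UMIs in ALG and 685 in PG, a ratio of 525 with a counting interval of 145 to 4345. CG5687 lay at 697 to 985 CPM in PG and at most 6.32 CPM in ALG, and shares exon sequence with CG46523 on the same strand.

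Time of day could be asked only between runs. Runs 5 (ZT20) and 6 and 7 (ZT8) are the only runs of a single ZT time. They share the antibody features by which a batch was set here, but no label names a batch and each run is its own library. The test took its spread from runs 2 and 3 and runs 6 and 7, the only runs that share a set of ZT times, which left 2 residual degrees of freedom. Of 6053 genes, 23 (0.38%) passed an adjusted p of 0.05, 10 higher at ZT20 (0.165%) and 13 lower (0.215%), and 450 had an unadjusted p under 0.05. Run 5 alone stands for ZT20, so that these are differences between that library and the others.

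Among clock genes, vri was the 1 that passed of 13 tested, and the list had a median log2 difference of -0.475 against 0.08 over all genes. vri (chromosome 2L, 5288944 to 5311223), a repressor of Clk that is itself driven by the clock, lay at 7.18 CPM in run 5 and at 147 and 125 CPM in runs 6 and 7. The run 5 level rests on a few UMIs in an ALG sum of 557338, and the ALG sum of run 7 held 104291. No counting interval was computed for vri. The log2 difference was -4.19 ± 0.57 with an adjusted p of 0.000156 (edgeR), and it missed the threshold without run 6 (adjusted p = 0.0641) and under a stricter gate of 5 UMIs of alrm and 3 of Gat (adjusted p = 0.168). In the mixed runs vri lay at 54.7 CPM (ZT8 and ZT20), 17.9 and 25.4 CPM (ZT2 and ZT20) and 73.1 CPM (ZT2 and ZT14). EG held 12.2 CPM in run 5 and 323 and 300 CPM in runs 6 and 7.

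Other clock genes did not pass. cwo lay at 23.3 CPM at ZT20 and 92.2 and 105 CPM at ZT8 (log2 -1.99 ± 0.48, adjusted p = 0.0729), and passed in 5 alternatives. Pdp1 lay at 1821 CPM and 2681 and 2819 CPM (-0.53 ± 0.20, adjusted p = 0.502, edgeR). per lay at 25.1 CPM and 37.7 and 38.4 CPM (-0.54 ± 0.59), and tim at 228 CPM and 297 and 278 CPM (-0.29 ± 0.29). The differences of per and tim were about as large as their standard errors, and per turned to 0.41 with cells of at least 3000 UMIs.

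**Figure D4:**
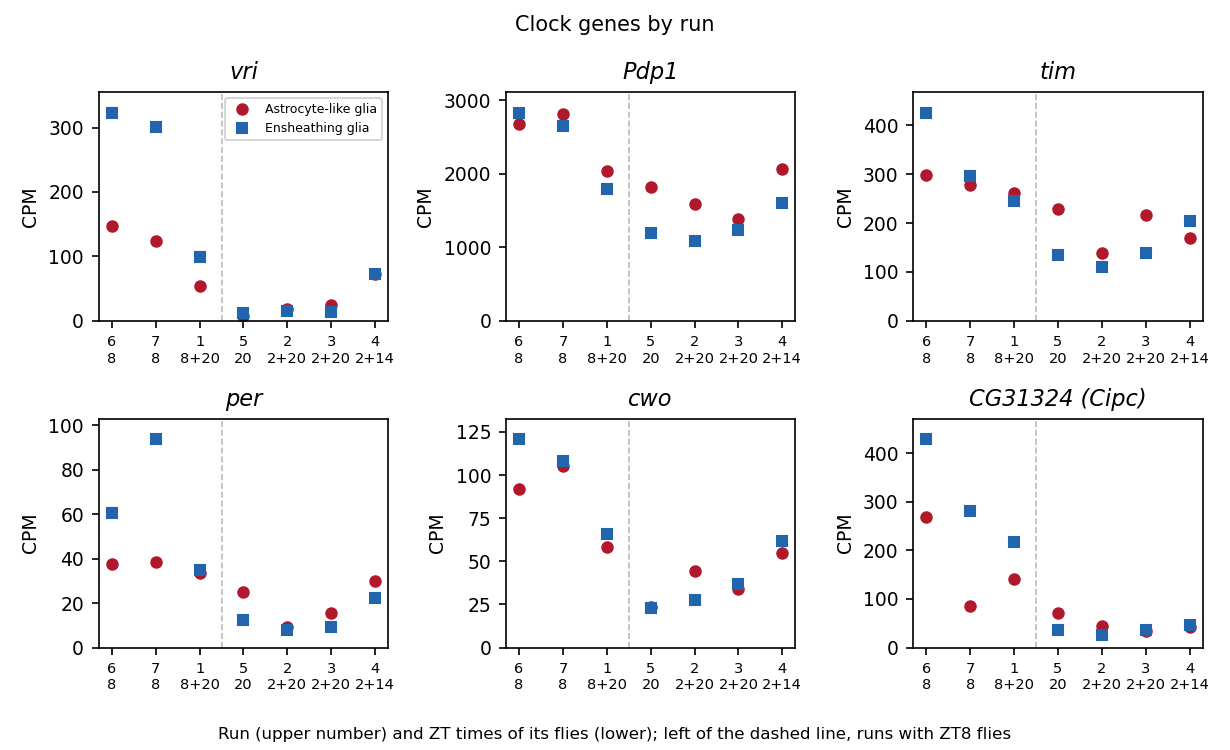
CPM of 6 clock genes in ALG and EG of each run, ordered by the ZT times of the flies, with runs that held ZT8 flies left of the dashed line. vri lies at 147 and 125 CPM in ALG of the ZT8 runs and at 7.18 CPM in the ZT20 run, and EG show the same order at 323, 300 and 12.2 CPM.

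The other genes lower at ZT20 were Thor, CG10799, CG11241, CG9686, CG7860, Eip71CD, ana, Ugt35b and Cyp28d1. Eip71CD, a methionine sulfoxide reductase, lay at 86.1 CPM at ZT20 and 419 and 431 CPM at ZT8 (log2 -2.24 ± 0.30, adjusted p = 0.000156, edgeR). CG9686 lay at 258 CPM against 1030 and 2282 CPM. Cyp28d1, a cytochrome P450, and Ugt35b, a glucuronosyltransferase, were 2.24-fold and 2.33-fold lower. The glial glycoprotein ana lay at 46.7 CPM against 235 and 115 CPM. GstD3 (820 against 1567 and 1966 CPM), the carbonic anhydrase CAH7 (listed as CG3940) and the teneurin Ten-a were the remaining calls.

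For 3 of these genes the ZT20 run held 3 UMIs or fewer. Thor, the translation repressor 4E-BP, had 1 UMI at ZT20 and 17 at ZT8, a ratio of 27.6 with a counting interval of 4.33 to 1154. CG10799 had 3 and 36 UMIs (ratio 19.5, interval 6.16 to 99.0), but under the stricter gate its log2 difference turned to 4.54, and CG11241 had 2 and 24 UMIs (ratio 19.5, interval 4.84 to 170). These ratios cover counting error only.

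Higher at ZT20 were mbl, CG11407, CG9360, CG6329, noe, IA-2, CG14989, CR31451, CG13631 and pros. For 7 of these 10 the mean level in neurons was above that in ALG, and for 0 of the 10 named genes that were lower. The share over all tested genes was not counted, so these counts stand without a background. IA-2, a tyrosine phosphatase-like protein of dense core vesicles, lay at 858 CPM at ZT20 and 352 and 288 CPM at ZT8 in ALG, and at 9874 CPM on average in neurons. The noncoding RNA noe lay at 25830 CPM against 9873 and 5600 CPM in ALG, and at 54276 CPM in neurons. The neuronal markers outside the rule stood at 265.5 CPM in ALG of run 5 and at 155.0 and 201.4 CPM in runs 6 and 7, and their part in these differences was not tested.

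The 3 with low neuronal levels were CG11407, CG9360 and CG13631. CG13631 lay at 4661 CPM at ZT20 and 1923 and 2426 CPM at ZT8, with 32.2 CPM in neurons (log2 1.18 ± 0.20, adjusted p = 0.00348, edgeR). CG9360 lay at 714 CPM against 134 and 259 CPM, with 12.0 CPM in neurons (2.05 ± 0.28). CG11407 (Acsx3), an acyl-CoA synthetase by its current name, lay at 319 CPM against 79.6 and 38.4 CPM, with 8.45 CPM in neurons (2.33 ± 0.36). Each stood higher in run 5 than in either ZT8 run by more than the gap between runs 6 and 7. The test that picked these genes takes part of its spread from that gap, so this adds no support.

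Lists other than the clock list held few calls, with pros among 16 fate genes and CG9360 and vri among the 15 genes that the study chose on these libraries. The transmitter list held 0 of 12, the receptors 0 of 20, the lipid list 0 of 16 and the sugar list 0 of 14. Rfabg came close in the lipid list, at 129 CPM at ZT20 and 331 and 316 CPM at ZT8 (-1.27 ± 0.29, adjusted p = 0.0507, edgeR), and GLaz gave -1.57 ± 0.41 (adjusted p = 0.135). With this design a miss does not show that a gene held its level. Leaving out run 6 left 4 calls and leaving out run 7 gave 63. Of the 23 genes, noe and Eip71CD kept their call in each of 14 alternatives, whereas Thor lost it in 8 of 13.

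All 7 runs were then split into those with ZT8 flies (1, 6 and 7) and those without (2 to 5), which gave 5 residual degrees of freedom. No gene of 5052 passed with edgeR (0%), 752 had an unadjusted p under 0.05, and DESeq2 called 58. Genes whose levels did not overlap between the sets numbered 642, or 12.7% of those tested. Summed neuronal markers outside the rule stood at 155.0 to 285.4 CPM in ALG of the runs with ZT8 flies and 265.5 to 1146 CPM in the others. The sets overlapped, since run 1 with ZT8 flies stood at 285.4 CPM and run 5 without at 265.5 CPM. The high sums, 673.5 to 1146 CPM, were those of runs 2 to 4. These runs had a high UMI floor and no ZT8 flies. The part of neuronal RNA in differences between the sets was not tested.

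Of 12 clock genes, 5 lay higher without overlap in runs with ZT8 flies (7.6% of all genes) and 1 lay lower (5.11% of all genes). The 5 were CG31324 (Cipc), cwo, tim, per and cyc, and the 1 was dco, and the list had a median log2 difference of 0.45 against -0.04 over all genes. After thinning, per was found in 2.06% and cyc in 2.12% of ALG. The ALG sums of runs 6 and 7 held 238730 and 104291 UMIs, so both genes rest on few UMIs there. No counting intervals were computed for the 5. CG31324, known as an inhibitor of Clk activity, lay at 142, 268 and 86.3 CPM in runs 1, 6 and 7 and at 33.1 to 71.8 CPM in the rest (log2 1.80 ± 0.34, adjusted p = 0.169, edgeR). Within the batches the difference was 1.73 between run 1 and runs 2 to 4 and 1.04 between runs 6 and 7 and run 5, as log2 of CPM plus 5. tim gave 0.59 and 0.33, per 0.82 and 0.51, cwo 0.38 and 1.87, and cyc 0.19 and 0.57. The lack of overlap by which these genes were picked fixes the sign of both values.

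vri lay at 54.7, 147 and 125 CPM in runs with ZT8 flies and reached 73.1 CPM in run 4, so that the sets overlapped (log2 1.50 ± 0.58, adjusted p = 0.256, edgeR). Its differences within batches were 0.66 and 3.53. When only the runs with small barcodes were used, an alternative chosen after the data were seen, vri passed (log2 3.68, adjusted p = 0.00207). The leading ALG genes Act79B and GstD3 did not overlap either. Act79B lay at 1350, 1345 and 1889 CPM with ZT8 flies and 416, 661, 745 and 833 CPM without (log2 1.09 ± 0.22, adjusted p = 0.169), and GstD3 gave 0.96 ± 0.19. Both passed with DESeq2 and with a batch term, CG31324 as well.

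A change between ZT8 and ZT20 in ALG was next set against that in EG of the same runs, since a call in 1 cell type and none in the other shows no difference. The test of that difference called 35 of 6175 genes (0.567%), 12 more positive in ALG (0.194%) and 23 more negative (0.372%), and 406 had an unadjusted p under 0.05. With 2 residual degrees of freedom it leans on the spread pooled over genes, and leaving out run 7 or run 6 left 2 and 3 calls.

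Of 13 clock genes 3 were called, all more positive in ALG, with a list median of 0.41 against 0.05 over all genes. tim lay in ALG at 228 CPM at ZT20 and 297 and 278 CPM at ZT8, and in EG at 134 CPM and 425 and 295 CPM, so that the gap between the ZT times was smaller in ALG (log2 1.25 ± 0.30, adjusted p = 0.00855, edgeR). Pdp1 lay at 1821 CPM against 2681 and 2819 CPM in ALG and at 1198 CPM against 2830 and 2649 CPM in EG (0.72 ± 0.16). CG31324 lay at 71.8 CPM against 268 and 86.3 CPM in ALG and at 35.1 CPM against 428 and 281 CPM in EG (2.03 ± 0.45). For vri the difference was 0.54 ± 1.01 and for cwo 0.41 ± 0.69, neither past the threshold. Of 14 alternatives, 10 ended the call of tim, among them the runs with small barcodes alone, 8 that of Pdp1 and 5 that of CG31324.

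Eaat1 was the transmitter gene among these calls. It lay at 4457 CPM at ZT20 and 4059 and 5264 CPM at ZT8 in ALG, and at 314 CPM and 468 and 581 CPM in EG (0.80 ± 0.19, adjusted p = 0.00749, edgeR). Its ALG levels at the ZT times thus overlapped while the EG level was lower at ZT20. The call was lost in 10 of 14 alternatives, among them a stricter gate, a lower mitochondrial limit, the removal of doublets, the runs with small barcodes alone and the fits without run 1, 2, 3, 6 or 7.

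The other genes more positive in ALG were nmo, CG9360, CG43693, HmgZ, CG31705 and mt:lrRNA. CG31705 lay at 7600 CPM at ZT20 and 4562 and 4315 CPM at ZT8 in ALG, and at 2609 CPM and 2429 and 2565 CPM in EG (0.82 ± 0.15). The kinase gene nmo lay at 194 CPM against 176 and 95.9 CPM in ALG and at 62.6 CPM against 169 and 251 CPM in EG. CG43693 stayed within 1918 to 2263 CPM in ALG, and in EG lay at 302 CPM against 528 and 566 CPM. CG9360 and HmgZ lost their call in 12 of 14 alternatives each, and CG9360 dropped to 0.0023 with cells of at least 3000 UMIs.

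More negative in ALG were CG4716, CG10799, Ugt86De, Prx2540-1, CG32369, CG7860, CG9689, CG42450, CG9686 and wun. CG9686 lay at 258 CPM at ZT20 and 1030 and 2282 CPM at ZT8 in ALG, and at 2402 CPM and 3822 and 3284 CPM in EG (-1.85 ± 0.19). CG10799 lay at 5.38 CPM against 92.2 and 134 CPM in ALG, and at 604 CPM against 30.2 and 29.5 CPM in EG, opposite orders in the same runs, but under the stricter gate the difference turned from -8.49 to 0.35. CG32369 lay at 407 CPM against 138 and 240 CPM in ALG and at 510 CPM against 24.1 and 34.5 CPM in EG. wun lay at 475 CPM against 419 and 451 CPM in ALG and at 94.6 CPM against 21.1 and 24.6 CPM in EG. CG4716 was listed at 0 in ALG of run 5 and in EG of runs 6 and 7, so no fold is given. Ugt86De and Prx2540-1 have close copies, and reads from them cannot be told apart here. The difference of Ugt86De turned from -5.06 to 2.03 without run 6, and that of mt:lrRNA from 0.80 to -0.14 with a mitochondrial limit of 20%. Of 14 alternatives, 11 ended the call of Prx2540-1, 8 that of Ugt86De, 8 that of wun and 7 that of CG42450, which stood at -0.35 with cells of at least 3000 UMIs.

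How far ALG differed among themselves was described within each run after thinning to 1000 UMIs, as the variance of a gene over the Poisson expectation. Over 749 genes the median ratio was 1.12. The ratio depends on the level of a gene and on depth, so a value near 1 does not show that cells were alike. The 10 highest were noe, mt:lrRNA, Obp44a, CR41602, CR34335, Act79B, MtnA, mt:CoII, mt:ATPase6 and mt:CoIII. Most are abundant. By mean CPM in ALG outside mitochondrial genes, CR41602 ranked 1, CR34335 2, noe 3, Obp44a 6 and MtnA 30. Act79B was not among the first 40. noe, abundant in neurons, had a median ratio of 53.8 over the runs, from 4.74 in run 7 to 129 in run 1. CR41602 and CR34335, noncoding RNA genes, and the mitochondrial genes were found in nearly all cells, at median ratios of 4.72 to 18.1.

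Obp44a, Act79B and MtnA were the protein genes of the nucleus in that list. Obp44a had a ratio of 11.8 to 26.4 (median 14.6), was found in 80.5 to 93.5% of thinned cells, and the 10% of cells with the most UMIs of it held 40.5 to 51.3% of its UMIs. Act79B was found in 15.9 to 32.6% of thinned cells and had a ratio of 4.07 to 14.9 (median 7.52), with 63.7 to 88.4% of its UMIs in the top 10% of cells. Act79B, a gene that set ALG apart from EG, was thus found in a minority of thinned cells in every run. A thinned cell without a UMI of Act79B may still hold its transcript, so the share of cells that carry it was not tested. The top 10% of cells were ranked by UMIs of the gene itself, so their share is high for any gene found in few thinned cells. MtnA had a ratio of 3.68 to 11.5 (median 6.34). Thinning to 2000 UMIs, which left 6 runs with enough cells, kept 7 of the 10 genes among the highest, and removal of called doublets kept 9. The ratios themselves grew at 2000 UMIs, to a median of 29.4 for Obp44a, 11.8 for Act79B and 11.7 for MtnA, and for 8 of the 10 genes they moved by more than the spread between runs.

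**Figure D5:**
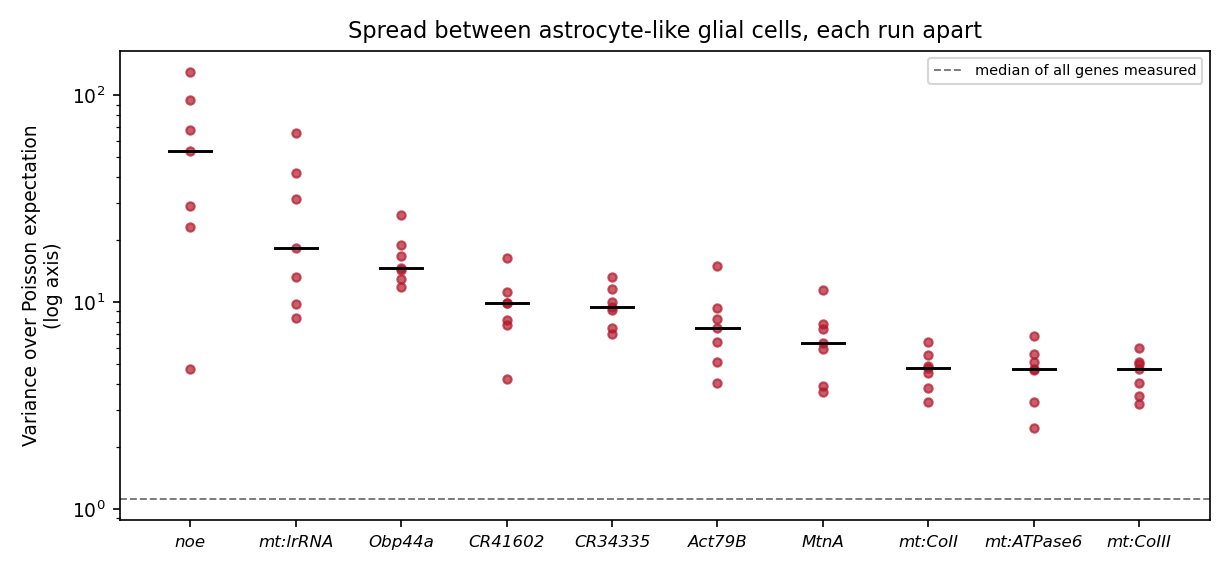
Variance over its Poisson expectation between ALG for the 10 genes with the highest median over runs, 1 point per run on a log axis, with a bar at the median and a dashed line at the median of 749 genes. Act79B lies between 4.07 and 14.9 and Obp44a between 11.8 and 26.4, above the median of 1.12 in each run.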

How the data were processed

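The authors dissociated central brains with actinomycin D present, made 10x Genomics 3′ v3.1 libraries, 1 per run, and counted UMIs per gene and barcode with Cell Ranger 3.1.0 on the BDGP6 genome. The deposited values are raw UMI counts, not normalized. A deposited table gave the fly lines, conditions and ZT times of each run. The files hold 16764 genes, of which 12512 matched a RefSeq gene by symbol and 4011 by an older symbol.

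Cells were gated as described (Python 3.11.15, scanpy 1.11.5), and counts were summed per run and cell type. Sums were tested with edgeR 4.0.16 in R 4.3.3 (quasi-likelihood, TMM scaling, filterByExpr, Benjamini-Hochberg adjustment over all genes tested). The comparisons of ALG with EG and PG kept the run as a block, since both cell types came from the same library. ZT comparisons took all 7 runs grouped by their ZT times. Genes of the rules stayed in library sizes and out of tests. The standard error of a log2 difference is its size over the square root of F. Differences within batches are of log2(CPM + 5). No file shows that runs came from separate batches of flies beyond the lines and ages given. With the run as a block, p-values of ALG against EG and PG measure how the difference within a run varied over runs. For ZT20 against ZT8, the spread came only from runs that share a set of ZT times. The library of ZT20 flies alone has no such partner, so spread among such libraries was not measured. For runs with against without ZT8 flies, p-values measure the spread between runs of each set.

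Doublets were called with scrublet as run in scanpy, kept in the main values and removed in an alternative. In runs 6 and 7 the automatic threshold called 0 cells, and the threshold of run 1 was used. Alternatives were DESeq2 1.42.0, RLE scaling, no count filter, stricter gates, a mitochondrial limit of 20%, cells with at least 3000 UMIs, doublets removed, a batch term, no replicate block and each run left out.

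The text names the 10 largest log2 differences in each direction among genes past the threshold, with the same direction in every run or, for ZT, no overlap between the sets, the 10 highest variance ratios between cells, and members of the lists. Cell members and gene lists were chosen with earlier results of these data known. Intervals cover counting error only.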

Additional observations from a re-analysis of the deposited data

Results flagged for a closer look

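Of 149 levels tested for a run far from the other 6, 10 were flagged, and chance flags about 1 in 20. Run 7, with the fewest ALG, held the highest level of PGRP-LC (38.4 CPM), CG8112 (47.9 CPM), Ect3 (19.2 CPM), CG9686 (2282 CPM), CG9689 (182 CPM) and CG42450 (412 CPM). Run 6 held the highest of Best1 (46.1 CPM) and Rel (83.8 CPM), run 4 of CG31200 (1.81 CPM, with 0 in the other runs) and run 1 of CG4716 (60.6 CPM). The ALG sum of run 7 held 104291 UMIs, so its levels of PGRP-LC, CG8112 and Ect3 rest on a few UMIs each. CG31200 held 2 UMIs over all ALG.

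The change from ZT8 to ZT20 differed between ALG and EG by an interaction test (edgeR) for 20 named genes. It was more positive in ALG, on the log2 scale, for nmo (2.15), CG31324 (2.03), tim (1.25), CG9360 (1.00), CG43693 (1.00), HmgZ (0.93), CG31705 (0.82), mt:lrRNA (0.80), Eaat1 (0.80) and Pdp1 (0.72). It was more negative for CG4716 (-15.06), CG10799 (-8.49), Ugt86De (-5.06), Prx2540-1 (-3.80), CG32369 (-2.85), CG7860 (-2.84), CG9689 (-2.62), CG42450 (-2.23), CG9686 (-1.85) and wun (-1.81). The fitted value of CG4716 depends on the prior count, since ALG at ZT20 and EG at ZT8 held none of its UMIs.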

How the results depend on the processing

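The ALG against EG comparison called 756 genes with cells of at least 3000 UMIs and 750 with no replicate block, against 1329. The ALG against PG comparison called 1521 genes in the runs with small barcodes alone, a setting chosen after seeing the data, and all 609 values of its named genes kept their direction and call. The ZT20 against ZT8 comparison called 11 genes with DESeq2, 57 with no count filter, 2 under the stricter gate, 52 with only the 3 runs of a single ZT time and 4 to 63 with a run left out. It had no value without run 5. Runs with against without ZT8 flies gave 58 calls with DESeq2, 338 with no filter, 2 with cells of at least 3000 UMIs, 81 with a batch term, 8 in the runs with small barcodes and 0 to 475 with a run left out. The difference of change between ALG and EG gave 2 calls with DESeq2, 23 without doublets, 20 with cells of at least 3000 UMIs, 22 in the runs with small barcodes and 2 to 22 with a run left out. The mean share of ALG was 0.581% with cells of at least 3000 UMIs. The cause was not tested.

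Signs turned, among ALG against EG log2 differences, for ine (0.0086 with a mitochondrial limit of 20%), for Atpalpha (-0.13 with cells of at least 3000 UMIs, -0.0067 with a stricter EG gate and -0.00015 to 0.062 with a run left out), for Obp44a (0.17) and for Hex-A (-0.15), the last pair with cells of at least 3000 UMIs. None of these passed the threshold in the main values. Between ZT20 and ZT8 they turned for CG10799 (4.54 under the stricter gate) and per (0.41 with cells of at least 3000 UMIs). For the difference of change they turned for mt:lrRNA (-0.14 with a mitochondrial limit of 20%), CG10799 (0.35 under the stricter gate) and Ugt86De (-5.77 to 2.03 with a run left out).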
